A study of Mus musculus with 11 samples.

Results

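The aryl hydrocarbon receptor (AHR) and 8 genes tied to it were examined in dendritic cells sorted from mouse spleen. The 9 genes, of 22180 tested, were the receptor gene Ahr, its partner Arnt, its repressor Ahrr, the targets Cyp1a1, Cyp1b1, Tiparp and Nqo1, and the tryptophan-degrading enzymes Ido1 and Ido2. Each gene was read from a probeset that names no other gene, and from the brightest of these where there were several. The genes were chosen by a list drawn up with their log2 values in exposed and naive cells in view, so for these 9 the levels and differences between the groups are a description and carry no p-value. The study sorted CD11c-positive, MHC class II-positive cells and asked how exposure to an aggressive Myc-driven B cell lymphoma changes them. The exposed group comprised 5 arrays (numbered 1, 2, 3, 4 and 6) of cells from C57BL/6 mice into which Eµ-Myc lymphoma cells had been transferred, and the naive group 6 arrays (numbered 1 to 6) of cells from C57BL/6 mice without lymphoma. Lymphoma cells made up 10 to 36% of splenic lymphocytes on average. The labels do not give ages, nor say that arrays stand for separate mice, so every p-value below measures the spread between these samples, which may be technical.

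AHR is a transcription factor of the bHLH-PAS family that is switched on by small molecules such as dioxins, plant indoles and breakdown products of tryptophan. It waits in the cytosol with chaperones, enters the nucleus when a ligand binds, pairs there with ARNT and binds DNA elements built around the bases GCGTG. Among the genes it switches on, CYP1 enzymes destroy the ligands, AHRR competes for ARNT, and TIPARP, an ADP-ribosyltransferase, limits the receptor's activity. In dendritic cells AHR is known for its link with the IDO enzymes, which make kynurenine, itself a ligand of AHR, and restrain T cells.

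The core element GCGTG was searched on both strands of RefSeq promoter windows (GRCm38.p6, from 250 bases before to 50 bases after a gene's start). A window was given for 6 of the 9 genes, and 5 of these held the core, which 32.4% of all 32851 windows also hold. Stretches around the matches in 4 genes that AHR is known to switch on are shown, because these genes are the usual readout of the receptor. Each runs 5′ to 3′ on the gene's strand, with the core in capitals (CACGC where it lies on the opposite strand) and 30 bases on either side.
Ahrr, chr13:74292324-74292468, minus strand: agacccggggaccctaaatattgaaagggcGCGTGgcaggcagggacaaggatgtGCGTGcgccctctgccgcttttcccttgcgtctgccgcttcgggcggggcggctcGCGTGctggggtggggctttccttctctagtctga
Cyp1a1, chr9:57697529-57697593, plus strand: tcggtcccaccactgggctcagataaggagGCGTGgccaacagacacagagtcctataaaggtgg
Cyp1b1, chr17:79715103-79715167, minus strand: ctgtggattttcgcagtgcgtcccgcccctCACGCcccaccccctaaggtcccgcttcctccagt
Tiparp, chr3:65528247-65528311, plus strand: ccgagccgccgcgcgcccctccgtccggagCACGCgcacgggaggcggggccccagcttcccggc
Ahrr held 3 cores, which began 107, 82 and 27 bases before the start. The last of them also fits the longer form TNGCGTG, which contains the core and was found in 5.07% of all windows and in 1 of the 6. The single cores began 54 bases before the start in Cyp1a1, 76 in Cyp1b1, 170 in Tiparp and 29 in Arnt. The Nqo1 window held none, nor the letters TGACNNNGC of the antioxidant response element, which 12.4% of all windows and, among the 6, that of Arnt hold. A match is a description of letters and not of binding.

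Values are log2 expression made by the authors with RMA, 1 value per probeset and array. Array medians lay between 5.53 and 5.61, and any 2 arrays correlated at 0.989 or more. The number of arrays limits the precision. Itgax, the gene of CD11c, stood at 11.98 ± 0.13 (SD, n = 5) in exposed and 12.11 ± 0.08 (SD, n = 6) in naive cells. A mark for dim genes was set at 5.60, the 95th percentile of the mean levels of olfactory receptor genes. In the fit over all genes 316 differed between the groups at an adjusted p under 0.05, 195 higher and 121 lower in exposed cells. With arrays aligned at their 75th percentiles the split was 166 higher and 215 lower. Because 731 genes also differed between arrays numbered 4 to 6 and arrays numbered 1 to 3 with the group held fixed, a division for which no label gives a reason, values within each number set are given too.

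Levels of the receptor gene itself are given first. Ahr (probeset 17280729) had a mean 1.36-fold lower in exposed cells. It read 11.003, 10.60, 10.94, 10.64 and 10.34 in exposed arrays 1, 2, 3, 4 and 6, against 11.15, 11.32, 11.16, 11.09, 11.19 and 11.013 in naive arrays 1 to 6. All exposed arrays lay below all naive arrays, though exposed array 1 only just, 0.01 under naive array 6. The mean was 10.70 ± 0.27 (SD, n = 5) in exposed and 11.15 ± 0.10 (SD, n = 6) in naive cells, a difference of -0.45 ± 0.10 (SE; 95% limits -0.67 to -0.23). The exposed arrays also spread more widely, over 0.66 against 0.31 among naive arrays. In RNA from many cells, fewer cells that carry a transcript and less of it per cell cannot be told apart.

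Of the 9 genes 1 passed the threshold, as lower, beside 1.42% of all genes, of which 0.546% passed as lower and 0.879% as higher. Groups that do not overlap were seen for 1 of the 9, beside 2.29% of all genes, 0.875% with exposed arrays lower. These genes were chosen on this contrast, so nothing is read from those shares. In the same fit over all genes Ahr was still past the threshold without exposed array 1 or without exposed array 3 and was not in the other 9 fits that leave out 1 array, where each of exposed arrays 2, 4 and 6 and each naive array was left out in turn. Its difference lay between -0.52 and -0.36 in all 11 of these fits.

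**Figure D1:**
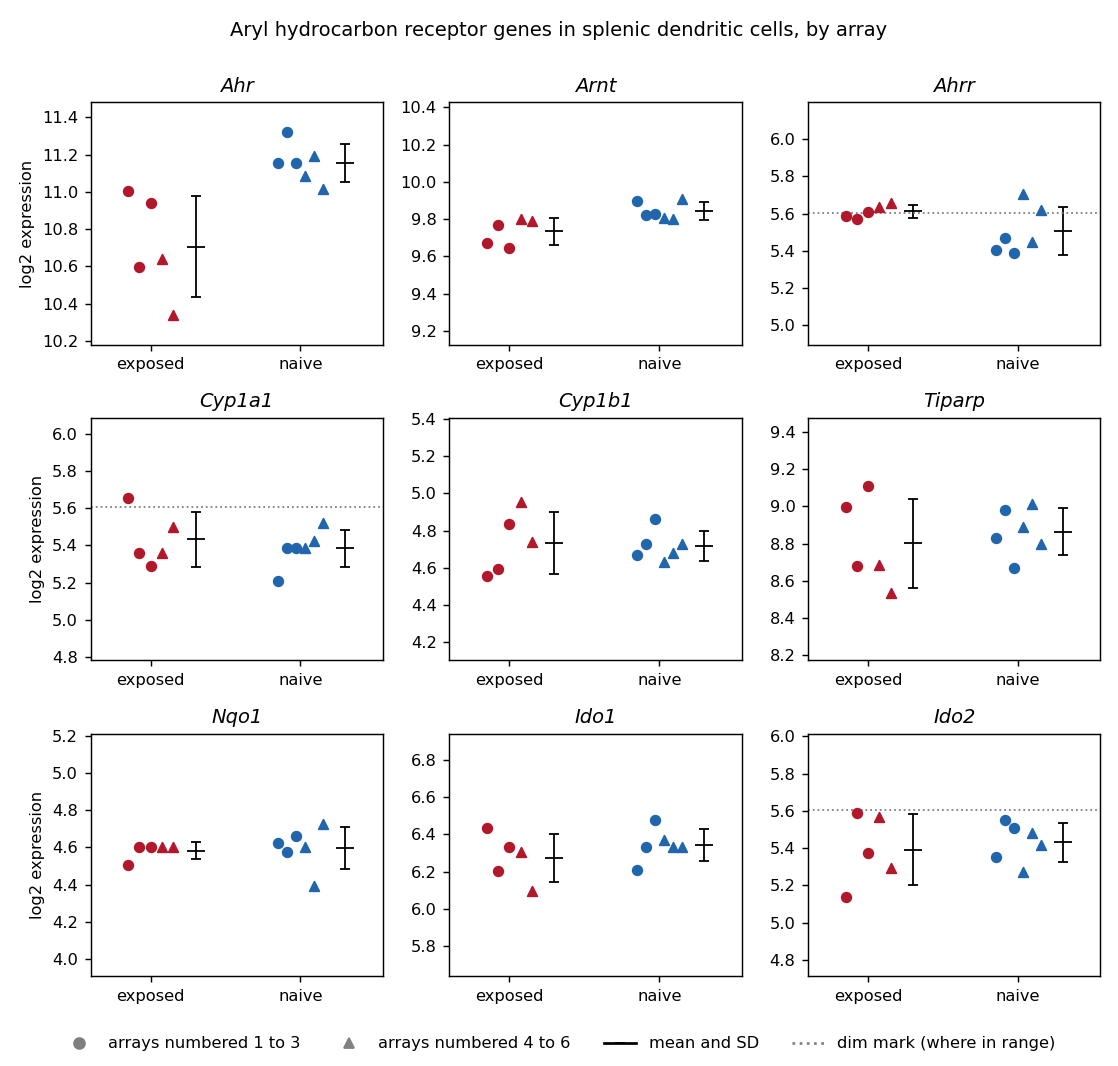
Log2 expression (vertical axis, the same span in every panel) of the 9 genes in each exposed (red) and naive (blue) array, with circles for arrays numbered 1 to 3, triangles for arrays numbered 4 to 6, and the mean with its SD beside each group. Exposed arrays lie below all naive arrays for Ahr, between 10.34 and 11.003 against 11.013 to 11.32, while the groups of the other 8 genes overlap or touch.

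The dimer partner Arnt came closest to Ahr in direction. Arnt, which AHR shares with the hypoxia factors, read 9.67, 9.77, 9.65, 9.80 and 9.79 in exposed arrays 1, 2, 3, 4 and 6, against 9.90, 9.82, 9.83, 9.81, 9.80 and 9.91 in naive arrays 1 to 6. Of the exposed arrays 4 lay below all naive arrays, and exposed array 4 met the lowest naive value. The means were 9.74 ± 0.07 (SD, n = 5) and 9.84 ± 0.05 (SD, n = 6), a difference of -0.11 ± 0.05 (SE; 95% limits -0.21 to -0.01) that did not pass over all genes.

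Ahrr, the receptor's repressor, was dim, with a mean over all arrays of 5.55, under the mark of 5.60. It read 5.59, 5.57, 5.61, 5.64 and 5.66 in exposed arrays 1, 2, 3, 4 and 6, against 5.41, 5.47, 5.39, 5.70, 5.44 and 5.62 in naive arrays 1 to 6. Exposed arrays kept within 0.09 of each other and inside the naive span of 0.32. The difference was 0.11 ± 0.07 (SE; 95% limits -0.04 to 0.25) and did not pass.

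The CYP1 enzymes, the classical readout of an active receptor, were also dim in both groups. Cyp1a1 lay between 5.29 and 5.66 with a median of 5.36 in exposed arrays, against 5.21 to 5.52 with a median of 5.39 in naive arrays. Only exposed array 1 was above all naive arrays. Cyp1b1 lay between 4.55 and 4.95 (median 4.74) in exposed arrays, against 4.63 to 4.86 (median 4.70) in naive arrays, with exposed arrays on both sides of the naive ones. The differences were 0.05 ± 0.08 (SE; 95% limits -0.11 to 0.21) for Cyp1a1 and 0.02 ± 0.08 (SE; 95% limits -0.15 to 0.18) for Cyp1b1. At levels under the dim mark a change in these transcripts could be hidden.

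Tiparp was the one target gene well above the dim mark, at 8.80 ± 0.24 (SD, n = 5) in exposed and 8.86 ± 0.13 (SD, n = 6) in naive cells. It read 8.99, 8.68, 9.11, 8.69 and 8.54 in exposed arrays 1, 2, 3, 4 and 6, against 8.83, 8.98, 8.67, 8.89, 9.01 and 8.80 in naive arrays 1 to 6. Exposed array 3 was the highest of all arrays and exposed array 6 the lowest. The difference of -0.06 ± 0.10 (SE; 95% limits -0.28 to 0.15) did not pass, and the other probeset of the gene, dim at 4.14, gave 0.03.

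Nqo1, a quinone reductase that answers both to AHR and to the oxidative stress factor NRF2, was dim, at 4.58 ± 0.04 (SD, n = 5) in exposed and 4.60 ± 0.11 (SD, n = 6) in naive cells. Exposed arrays 2, 3, 4 and 6 all read 4.60 and exposed array 1 read 4.50. The naive arrays spread from 4.39 to 4.72, around all the exposed ones. The difference was -0.01 ± 0.06 (SE; 95% limits -0.15 to 0.12).

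Ido1 was above the dim mark, at 6.43, 6.20, 6.33, 6.30 and 6.10 in exposed arrays 1, 2, 3, 4 and 6, against 6.21, 6.33, 6.48, 6.37, 6.33 and 6.33 in naive arrays 1 to 6. The groups overlapped, with 2 exposed arrays below all naive arrays. Its difference was -0.07 ± 0.07 (SE; 95% limits -0.22 to 0.08). Ido2, the neighbouring and less active enzyme, was dim, between 5.14 and 5.59 (median 5.37) in exposed arrays and between 5.27 and 5.55 (median 5.45) in naive arrays. The difference was -0.04 ± 0.09 (SE; 95% limits -0.23 to 0.15). Neither passed.

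**Figure D2:**
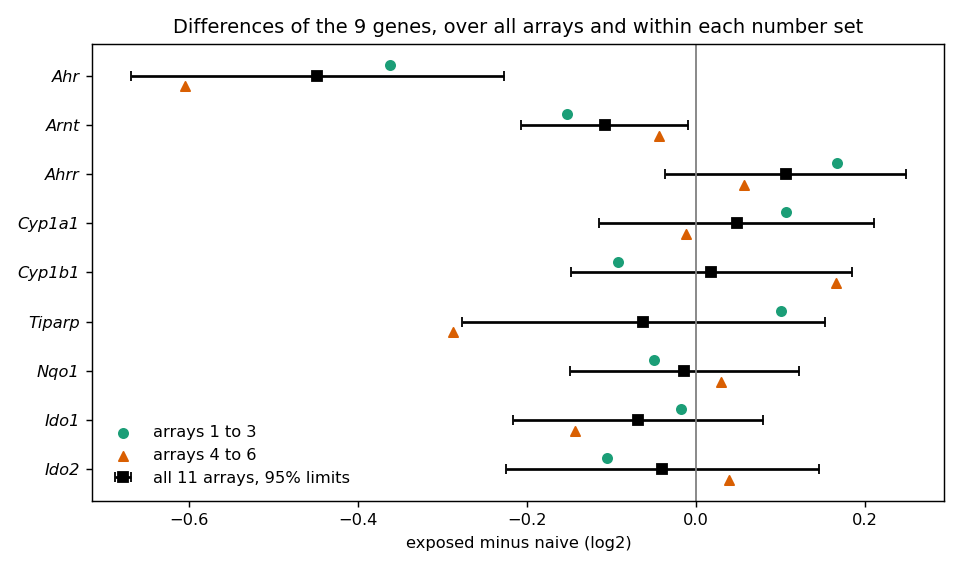
Exposed minus naive differences (log2, horizontal axis) of the 9 genes over all 11 arrays, with their 95% limits (squares and bars), and the same differences within arrays numbered 1 to 3 (circles) and 4 to 6 (triangles). Ahr is the gene farthest from 0, at -0.45, and the number sets lie on opposite sides of 0 for Tiparp, Cyp1a1, Cyp1b1, Nqo1 and Ido2.

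Differences within the number sets were compared next. For Ahr the difference was -0.60 among arrays 4 to 6 and -0.36 among arrays 1 to 3, and it passed in neither set alone. A fit that blocks on the number set gave -0.47, and there the gene passed. Arnt gave -0.04 for the later numbers against -0.15 for the earlier ones, and Ahrr gave 0.06 against 0.17. Of the 9 genes 5 took opposite signs in the number sets. Tiparp gave -0.29 for numbers 4 to 6 and 0.10 for numbers 1 to 3, Cyp1b1 gave 0.17 and -0.09 in that order, and Ido2 gave 0.04 and -0.11. The sign also turned for Cyp1a1 (-0.01 and 0.11) and Nqo1 (0.03 and -0.05). The interaction of group with number set for Tiparp was -0.39 ± 0.17 (SE), with an unadjusted limma p of 0.0436 and an adjusted p of 0.992 over all genes. None of the 9 genes, and 0% of all genes, passed for that interaction by limma at an adjusted p under 0.05, and 943 of the 22180 genes did at an unadjusted p under 0.05.

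The number sets themselves, compared with the group held fixed, did not use the contrast that chose the genes. None of the 9 genes passed, beside 3.30% of all genes (2.64% higher and 0.658% lower). Ahr was closest, 0.22 lower in arrays 4 to 6, with a difference of -0.22 ± 0.08 (SE; limma adjusted p = 0.176). It averaged 10.49 in exposed arrays 4 and 6 and 10.85 in exposed arrays 1 to 3, and 11.10 in naive arrays 4 to 6 and 11.21 in naive arrays 1 to 3. The other 8 genes differed between the number sets by at most 0.12, the value of Ahrr (adjusted p = 0.282).

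The next question was whether the genes move together from array to array. Group means were removed first, so that the contrast between the groups plays no part, and the 4 genes above the dim mark were compared, which gives 6 relations. Ahr and Tiparp deviated in the same direction, with Pearson's r of 0.85 (n = 11 arrays; exact permutation p = 0.0073, two-sided, adjusted p = 0.0438 over the 6 relations) and Spearman's rho of 0.78 (permutation p = 0.0271, adjusted p = 0.0601). In exposed cells arrays 1 and 3 were high for both genes and array 6 was low for both. Without the pair of arrays farthest from the median of Ahr, exposed 1 and exposed 6, r was 0.79. Taken by number set, r was 0.91 for the 5 arrays 4 to 6 and 0.89 for the 6 arrays 1 to 3, and by group it was 0.95 among exposed and 0.50 among naive arrays. The permutations for all 6 relations exchanged arrays within a group without regard to number set. With the means of the number sets removed too, r for Ahr and Tiparp was 0.88. How many pairs of other genes reach such an r was not tested, so nothing particular to this pair is read from it.

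Arnt deviated in the opposite direction from both. With Ahr, r was -0.76 (n = 11 arrays; exact permutation p = 0.0285, adjusted p = 0.057) and rho -0.76 (permutation p = 0.030, adjusted p = 0.0601), and r was -0.74 without exposed arrays 1 and 6. With Tiparp, r was -0.80 (exact permutation p = 0.0197, adjusted p = 0.057) and rho -0.78 (permutation p = 0.0271, adjusted p = 0.0601), and r was -0.83 without exposed array 4 and naive array 6. Neither passed once adjusted. Ahr and Ido1 gave r of 0.68 (exact permutation p = 0.0521, adjusted p = 0.0781), which fell to 0.23 without exposed arrays 1 and 6. By group it was 0.95 among exposed and -0.04 among naive arrays. Ido1 gave r of -0.62 with Arnt (adjusted p = 0.0948) and 0.43 with Tiparp (adjusted p = 0.277). With Arnt it was -0.68 among exposed and -0.50 among naive arrays. With Tiparp the sign differed by group, at 0.82 among exposed and -0.42 among naive arrays. Ido1 had the same value, 6.331, in naive arrays 2, 5 and 6, so its correlations among naive arrays rest on few distinct values.

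**Figure D3:**
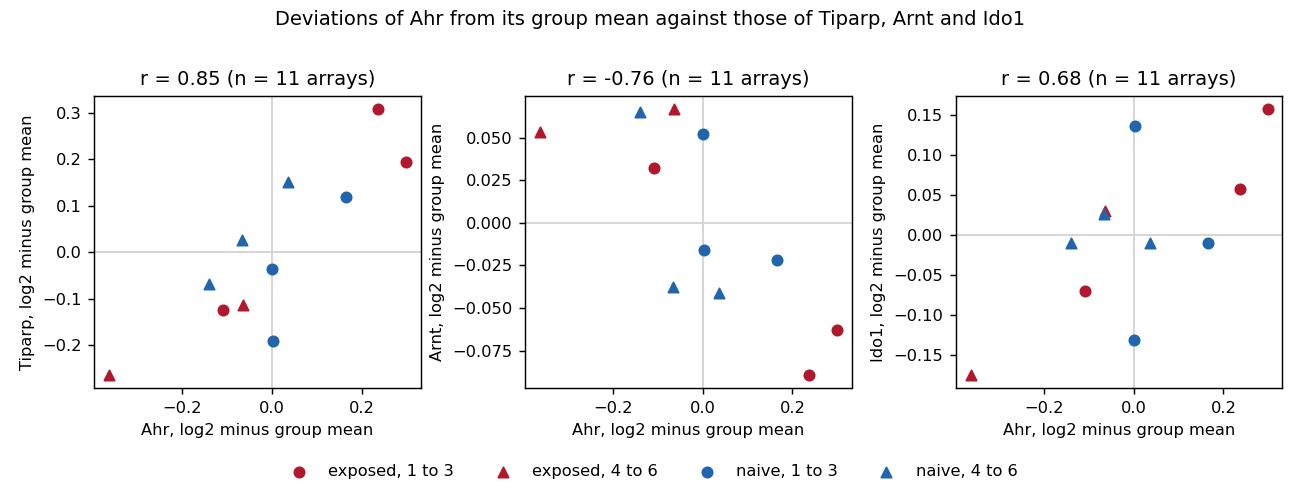
Deviations of Tiparp, Arnt and Ido1 (vertical axes) from their group means against those of Ahr (horizontal axes), in log2 units, for 5 exposed (red) and 6 naive (blue) arrays, with circles for arrays numbered 1 to 3 and triangles for arrays numbered 4 to 6. Exposed arrays 1 and 3 lie to the right and exposed array 6 to the left in each panel, and r is 0.85, -0.76 and 0.68.

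As a description, the genes whose deviations were most like those of the members were sought among 11830 named genes above the dim mark, over the same 11 arrays. Nearest to Ahr were the histone demethylase gene Kdm6b (r = 0.96), the zinc finger gene Zbtb10 (r = 0.95) and Wtip (r = 0.95). Nearest to Tiparp were Tnfaip3, an inhibitor of NF-kB signalling (r = 0.96), Akap2 (r = 0.94) and Nr4a2, an orphan nuclear receptor of the immediate early kind (r = 0.94). Nearest to Arnt were the transcription factor subunit Gtf3c2 (r = 0.95), the dynactin subunit Dctn5 (r = 0.94) and Slc35b3 (r = 0.89). Nearest to Ido1 were Hcar2, a receptor for niacin and ketone bodies (r = 0.91), Trak1 (r = 0.90) and Gpr176 (r = 0.90). None of these 12 genes passed between exposed and naive cells.

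Levels of cell type markers were set beside the levels of Ahr, each list given as the mean of its measured genes on an array. Markers of type 1 conventional dendritic cells, known for Ido1 and the uptake of dead cells, ranged from 10.49 to 10.84 in exposed and from 10.52 to 10.85 in naive arrays, and 0 of 9 passed. Those of type 2 conventional dendritic cells ranged from 8.90 to 9.10 in exposed and from 9.02 to 9.23 in naive arrays, with 4 exposed arrays below all naive ones. Of these 10 markers the lectin genes Cd209a (-1.02; limma adjusted p = 0.00345) and Clec4a4 (-0.43; adjusted p = 0.025) fell, and the chemokine receptor Cx3cr1 rose by 0.46 (adjusted p = 0.00866). Markers of mature migratory dendritic cells ranged from 10.30 to 10.67 in exposed and from 10.09 to 10.36 in naive arrays, and 2 of 8, Fscn1 and Relb, rose.

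Red pulp macrophage markers, all 11 above the dim mark, spread from 8.91 to 10.89 in exposed and from 8.16 to 9.39 in naive arrays. In exposed arrays 1, 2, 3, 4 and 6 this list stood at 10.89, 9.95, 9.12, 8.98 and 8.91. Ahr in the same 5 arrays, in that order, was 11.003, 10.60, 10.94, 10.64 and 10.34. Differences of 10 of the 11 markers were positive and 0 passed, the largest being that of Cd5l (1.89; adjusted p = 0.0693). T and NK cell markers ranged from 5.42 to 5.71 in exposed and 5.33 to 5.48 in naive arrays, with 4 of 8 under the dim mark and 1, Ncr1, risen. B cell markers ranged from 6.70 to 7.02 and 6.76 to 6.997 in the same order. Plasmacytoid dendritic cell markers ranged from 7.82 to 8.32 and 7.78 to 8.14, monocyte and neutrophil markers from 6.02 to 6.53 and 5.94 to 6.16, and hepatocyte and epithelial genes from 5.80 to 6.00 and 5.85 to 5.93, none with a gene past the threshold. The part of these cells in the level of Ahr was not tested.

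Genes around the receptor were then read from 6 lists, in which the 9 genes are left out. Of all genes 0.879% passed as higher and 0.546% as lower. The lists were drawn up with earlier results of these data known, so nothing is read from how many genes of a list passed. Among chaperones, partners and coactivators 1 of 9 measured genes rose and none fell, with a median difference of 0.01 beside 0.008 over all genes. Relb, the NF-kB subunit that can pair with AHR, rose by 0.25 ± 0.05 (SE; limma adjusted p = 0.0194). It read 10.63, 10.68, 10.80, 10.62 and 10.61 in exposed arrays 1, 2, 3, 4 and 6, against 10.36 to 10.49 with a median of 10.41 in naive arrays, and the groups did not overlap. Its call was lost without exposed array 2 or without naive array 5, and with arrays aligned at their 75th percentiles. The chaperone Hsp90aa1 gave 0.03 (adjusted p = 0.947), the coactivator Ncoa3 gave -0.10 (adjusted p = 0.361) and Rela gave 0.04 (adjusted p = 0.910).

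Other genes that AHR is known to induce gave 2 rises and no fall past the threshold among 10 measured, with a median difference of 0.08. Differences of 6 of the 10 were positive. Socs2, an inhibitor of cytokine signalling, rose by 0.83 ± 0.13 (SE; adjusted p = 0.00866), with 9.24 ± 0.21 (SD, n = 5) in exposed and 8.41 ± 0.27 (SD, n = 6) in naive cells, though its other probeset gave 0.23. Scin, which encodes the actin-severing protein scinderin, rose by 0.53 ± 0.11 (SE; adjusted p = 0.0291), with 4 exposed arrays above all naive arrays. When single arrays were dropped, its call was lost 8 times of 11, for each of exposed arrays 1, 2 and 4 and naive arrays 2 to 6. Of the remaining genes Nfe2l2, the gene of NRF2, gave -0.17 (adjusted p = 0.506) and the amino acid carrier Slc7a5 gave 0.30 (adjusted p = 0.174). Serpinb2 had the lowest difference of the list, -0.47 ± 0.20 (SE; limma adjusted p = 0.337), and did not pass. Of its exposed arrays 3 lay below all naive arrays.

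Enzymes and carriers of tryptophan, which supply and remove the ligand made by IDO, showed 0 of 16 genes past the threshold and a median difference of -0.006. Kmo, the kynurenine hydroxylase, stood at 11.07 ± 0.20 (SD, n = 5) in exposed and 11.27 ± 0.09 (SD, n = 6) in naive cells (adjusted p = 0.324). Kynu, the kynureninase gene, gave -0.13 (adjusted p = 0.674) and the carrier chain Slc3a2 gave -0.01 (adjusted p = 0.990). The largest difference was that of the amino acid carrier Slc7a8, 0.51 ± 0.22 (SE; adjusted p = 0.372), with exposed array 1 at 10.19 and the other exposed arrays between 8.79 and 9.25. In the fit that blocks on the number set Slc7a5 passed, at 0.32 (adjusted p = 0.0347).

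NRF2 and its targets gave 1 rise and no fall among 10 measured genes, with a median difference of 0.05. Gsr, glutathione reductase, rose by 0.44 ± 0.08 (SE; adjusted p = 0.0182), at 9.79 ± 0.17 (SD, n = 5) in exposed and 9.35 ± 0.12 (SD, n = 6) in naive cells, without overlap. The call was lost without exposed array 2. Hmox1, heme oxygenase and also a red pulp macrophage marker, gave 0.43 (adjusted p = 0.718), and Gclc of glutathione synthesis gave 0.11 (adjusted p = 0.864).

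The 15 measured bHLH-PAS relatives of AHR had a median difference of -0.009, and 0 passed. The clock repressor Per1 differed most, by -0.39 ± 0.13 (SE; adjusted p = 0.208), while the clock factor Clock gave -0.02 (adjusted p = 0.938) and the hypoxia factor Hif1a gave 0.01 (adjusted p = 0.973). Of 8 genes of the interferon gamma route that induces Ido1, 1 rose and none fell, with a median of 0.01. That gene was Socs3, a feedback inhibitor of cytokine signalling, at 0.83 ± 0.14 (SE; adjusted p = 0.016), and its other probeset gave 0.775. The receptor chain Ifngr1 gave -0.14 (adjusted p = 0.135), Jak2 gave 0.01 (adjusted p = 0.963) and the dendritic cell factor Irf8 gave 0.17 (adjusted p = 0.208).

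**Figure D4:**
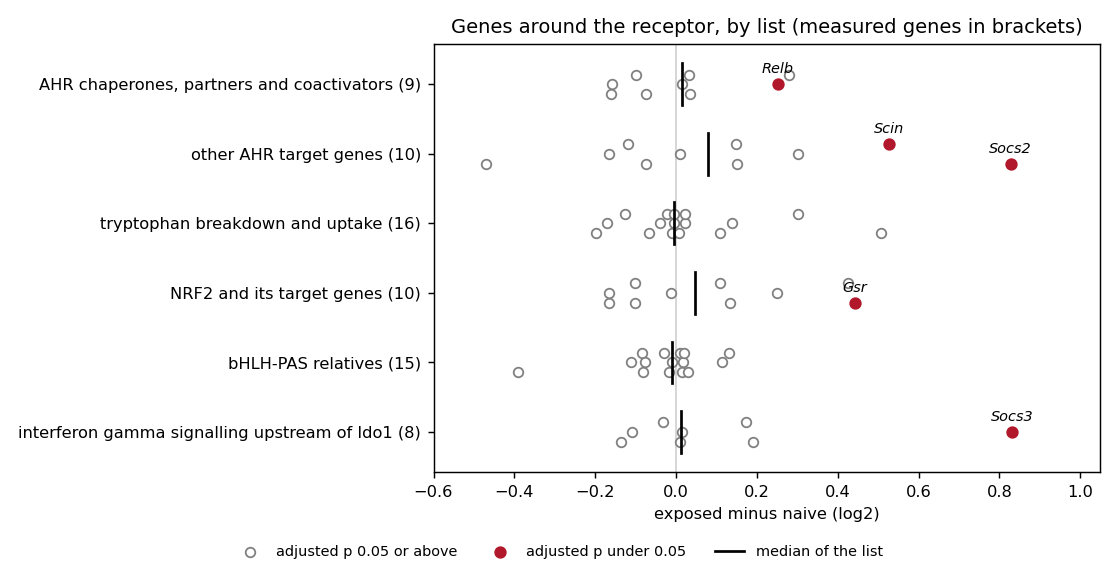
Exposed minus naive differences (log2, horizontal axis) of the genes in 6 lists around the receptor, with filled points for genes past an adjusted p of 0.05, open points for the others and a bar at each list's median. Medians lie between -0.009 and 0.08, and the filled points are Relb, Scin, Socs2, Gsr and Socs3.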

How the data were processed

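The deposited table holds log2 expression from 11 1-colour Affymetrix arrays, 1 per sample; per the submitters' processing notes the authors used RMA, which corrects background, normalises between arrays and summarises probes. Its version and the genome build are not given in the sources used here. Of 41801 listed probesets 7329 were blank on every array, and 34472 were used. The given platform table names 1 gene for 23521 of them, several for 1814 and none for 9137. Keeping the brightest probeset of a gene left 22180 genes.

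Exposed minus naive differences were computed with limma 3.58.1 (lmFit, eBayes with trend) in R 4.3.3, with Benjamini-Hochberg adjustment over all genes and a threshold of 0.05. SE and 95% limits are limma's. The number sets were compared with the group as a covariate, and their interaction with the group was fitted. Simulated data in this design were used to test the script. Correlations used exact permutations within groups.

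All members, lists, tests and alternatives were chosen with earlier results of these data known. Named list genes are those past the threshold, up to 3 in each direction, or otherwise the one that differs most, and up to 3 of the brightest. Serpinb2 is named as well, for the lowest difference among the other AHR targets. Some listed genes were not analysed here. Title and characteristics disagree for an exposed array (6 against 5), and the title was followed. Sort purity was above 95%, per the labels. Alternatives covered the variance model, scaling, a filter on dim genes, the probesets used, replicate and number-set blocks, each number set alone and each array left out.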

Additional observations from a re-analysis of the deposited data

Results flagged for a closer look

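Nqo1 in exposed array 1, at 4.50, lay far from the other 4 exposed arrays, which all read 4.602. The gap made up the whole range of the group. Both values are under the dim mark of 5.60, and the gap of 0.10 is smaller than the naive range of 0.33. Among 28 groups of arrays examined, for the 9 genes and 5 list genes, this was the 1 such array. Because the other 4 arrays share 1 value, the gap is the whole range whatever other value exposed array 1 takes. The flag was thus fixed by the tie, and the rate of about 1 in 20 groups by chance does not apply to it.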

How the results depend on the processing

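The call of Ahr depended on the processing. Its difference stayed negative, but the gene was chosen on this contrast and all exposed arrays lay below all naive ones. Any selection of the arrays would give that sign, so the steady direction is not a test. Of the 9 genes 1 passed, and 0 passed with eBayes without trend, with quantile normalisation, with a replicate block on the characteristic's number, or in arrays 1 to 3 or arrays 4 to 6 alone. Ahr passed in 6 of 11 such alternatives, with differences from -0.60 to -0.36. Among those 6, the mean of all probesets and the filter on dim genes left its values unchanged, since it has 1 probeset and is bright. Those passes are no separate support. Leaving out each array gave 0 to 1 members and, for Ahr, -0.52 to -0.36. The cause was not tested. A number set alone also has fewer arrays, and the part of that was not tested either.

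Of all genes 316 passed between exposed and naive cells, 617 with the number set as a block, 11 in arrays 1 to 3 alone and 5 in arrays 4 to 6 alone. Leaving out single arrays gave 104 (without exposed 2) to 395 (without exposed 6), with 205 without exposed 3 and 155 to 177 without naive 1, 2, 3, 5 or 6. Between number sets 731 passed, 1675 with arrays at a common median, and 132 (without exposed 6) to 725 when single arrays were left out. The interaction had 0, and 0 to 7 (without exposed 3).

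Replicate numbers were tried as a pairing. Arrays sharing a title number correlated at 0.0880 to 0.231 after group means were removed, with 1 of the 5 pairs under 0.1, and 2 of 5 exposed arrays were closest to their own number, so arrays were left unpaired. A replicate block on the title's number gave 341 genes and on the characteristic's number 182. With either block 0 chaperone and partner genes and 0 NRF2 genes passed, and with the characteristic's number 1 tryptophan gene did (Slc7a5, 0.37, limma adjusted p = 0.0287), as 1 did with the number set as a block. Scin lost its call with the characteristic's number (0.49), where the other AHR targets past the threshold were Socs2 and Slc7a5.

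Among the lists, chaperones and partners had 0 at a common 75th percentile and 0 to 1 with single arrays left out. NRF2 genes had 0 to 1 and other AHR targets 1 to 2 with single arrays left out. In arrays 1 to 3 alone and arrays 4 to 6 alone these lists and the interferon gamma list each had 0.

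Small differences changed sign. Exposed minus naive, Cyp1a1 was -0.011 in arrays 4 to 6 and -0.0073 to 0.084 with single arrays left out. Cyp1b1 was -0.017 at a common 75th percentile, -0.092 in arrays 1 to 3 and -0.036 to 0.063 with single arrays left out. Tiparp was 0.10 in arrays 1 to 3 and -0.14 to 0.0040 with single arrays left out. Nqo1 was 0.012 with the characteristic's replicate block, 0.029 in arrays 4 to 6 and -0.054 to 0.012 with single arrays left out. Ido2 was 0.039 in arrays 4 to 6 and -0.089 to 0.024 with single arrays left out. Numbers 4 to 6 minus 1 to 3, at a common 75th percentile Arnt was -0.0029 and Cyp1b1 -0.00057, at a common median Nqo1 was 0.042, Ido1 0.0011 and Ido2 0.035, and after quantile normalisation Nqo1 was 0.039 and Ido2 0.036. With single arrays left out Cyp1b1 ranged from -0.023 to 0.083, Nqo1 from -0.045 to 0.038 and Ido2 from -0.079 to 0.020. Most of these genes are under the dim mark, and signal this near background limits what can be seen.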
